A study of Homo sapiens with 6 samples.

Results

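Caveolae are small flask-shaped pits of the plasma membrane, built by the genes examined here: the caveolins CAV1, CAV2 and CAV3, the cavins CAVIN1, CAVIN2, CAVIN3 and CAVIN4, and EHD2, PACSIN2 and PACSIN3, whose proteins shape or hold the neck of the pit. These 10 genes were taken by symbol from the 16832 listed in every library, and all 10 were listed. The family was selected on its FPKM in the 6 libraries, with the SLCDS against control comparison already known; there CAVIN2 was among the largest increases. The values of the family in that comparison are therefore a description, taken from a fit across all genes, and serve as evidence for nothing further.

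In a caveola, caveolins form the membrane-inserted scaffold and cavins assemble into a coat on its inner side. CAV1 and CAVIN1 are both needed for caveolae to form in most cells, while CAV3 and CAVIN4 are the forms typical of muscle. Caveolae are rich in cholesterol, are dense in endothelium, fat and muscle, and are known to flatten when the membrane is stretched; CAV1 is also expressed in astrocytes and glioma cells.

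RNA was sequenced from U251, an established human glioma cell line, labelled wild type in all samples. For 3 libraries cells had received SLCDS over 18 days. SLCDS is a small-molecule mixture, and the labels leave its make-up unstated. The 3 control libraries came from cells given PBS in its place, with culture time not recorded, and nothing states whether replicates were separate cultures, so p-values measure the spread between these libraries, which may be technical. The deposited values are FPKM, fragment numbers scaled to transcript length and library size. From their exact steps, whole fragments were recovered for all 11506 genes tested, with library totals of 16127418 to 17016942 fragments.

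As a check of the cell line, SOX2, a neural stem cell factor, stood at 369.7 to 388.2 FPKM with SLCDS and 420.0 to 445.0 FPKM without, and the glial filament gene GFAP at 127.2 to 141.4 and 311.7 to 353.9 FPKM. The intermediate filament genes VIM and NES averaged 1523.9 and 253.8 FPKM with SLCDS and 1506.7 and 216.0 FPKM without. The astrocyte genes AQP4 and ALDH1L1 lay under 1 FPKM in every library. Of 8 tested glioma and astrocyte markers, the glutamine synthetase gene GLUL rose from 12.4 ± 0.387 to 18.4 ± 0.586 FPKM, GFAP fell, and 6 were not called (limma, adjusted p = 0.00419 and 0.000596). With all libraries, 4.28% of all tested genes were called higher and 1.82% lower. Without control replicate 3, 4 of these markers were higher and 3 lower, where 16% of all tested genes were higher and 11.8% lower. NES was then called higher and SOX2 lower (limma, adjusted p = 0.00539 and 0.00919). Control replicate 3 stood apart from the other 5 libraries. Over genes, its Pearson correlations with them were 0.9701 to 0.9767, against 0.9839 to 0.997 in the 10 pairs without it. The values of the tested members, the counts for the lists and the values of most other named genes are therefore also given without this library. In that fit the control group is 1 library smaller, and its remaining libraries correlated at 0.9969. The library was singled out because it stood apart, so leaving it out narrows the spread between controls by selection. The smaller p-values without it are not firmer evidence than those with all libraries.

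The RefSeq regions of 250 bases before the first annotated start are shown for CAVIN2 and CAV1, the members called higher in SLCDS, and for CAV2, the neighbour of CAV1, which was not called. Sequences are from RefSeq on GRCh38.p14, written 5′ to 3′ on the strand of the gene. Capitals mark a GC box (GGGCGG or CCGCCC) or the hexamer bound by TEAD factors (GGAATG or CATTCC). CAVIN2 lies at chr2:191847089-191847338 on the minus strand, CAV1 at chr7:116524759-116525008 on the plus strand and CAV2 at chr7:116499488-116499737 on the plus strand.
CAVIN2: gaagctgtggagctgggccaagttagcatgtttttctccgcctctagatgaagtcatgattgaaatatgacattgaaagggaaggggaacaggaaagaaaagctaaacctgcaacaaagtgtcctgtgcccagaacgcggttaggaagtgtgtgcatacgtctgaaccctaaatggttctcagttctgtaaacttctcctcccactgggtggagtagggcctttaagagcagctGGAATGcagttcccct
CAV1: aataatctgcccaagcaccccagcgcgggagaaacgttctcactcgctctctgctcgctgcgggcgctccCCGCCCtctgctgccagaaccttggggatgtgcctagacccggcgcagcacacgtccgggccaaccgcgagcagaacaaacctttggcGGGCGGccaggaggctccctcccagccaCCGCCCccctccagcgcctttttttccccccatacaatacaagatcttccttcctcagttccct
CAV2: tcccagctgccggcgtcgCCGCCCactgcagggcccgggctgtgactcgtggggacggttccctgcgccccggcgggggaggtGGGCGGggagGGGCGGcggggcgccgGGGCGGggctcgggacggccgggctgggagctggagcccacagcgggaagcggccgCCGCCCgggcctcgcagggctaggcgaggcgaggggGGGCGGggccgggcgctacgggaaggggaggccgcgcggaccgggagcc
The 3 regions differ in composition. GC content was 48.0% for CAVIN2, 63.6% for CAV1 and 83.2% for CAV2, against a median of 57.6% over 27305 such regions. The CAV2 window held 6 GC boxes and the CAV1 window 3, while the CAVIN2 window held none. Of the other members with such a region, PACSIN2 held 2, EHD2 held 1, and CAV3 and CAVIN4 held none. On both strands, 42.2% of all regions held at least 1. The CAVIN2 window held 1 TEAD hexamer, beginning 16 bases before the start, a hexamer found in 12% of all regions. No CArG box, the element bound by serum response factor, was found in the windows of the 7 members that the table held (1.1% of all regions had one). A match describes letters in a window and is not evidence of binding.

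CAVIN2, whose protein binds phosphatidylserine and drives membrane curvature, stood at 11.8, 11 and 10.6 FPKM in SLCDS replicates 1 to 3 and at 3.28, 3.28 and 2.72 FPKM in control replicates 1 to 3. All SLCDS libraries lay above all controls. The mean level was 3.61 times as high, 11.2 ± 0.608 FPKM (SD, n = 3) against 3.09 ± 0.321 FPKM. On the log2(FPKM + 1) scale, where changes of low genes come out too small, the fold change was 1.57 (SE 0.09; limma, Benjamini-Hochberg adjusted p = 0.00029), the 12th highest of 11506 tested genes. The level rested on 557 to 608 fragments per SLCDS library and 141 to 163 per control library. Leaving out control replicate 3, the lowest library, the log2 fold change was 1.51 (limma, adjusted p = 3.18e-07).

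CAV1, the main structural caveolin outside muscle, stood at 38.7, 39.3 and 40.2 FPKM in SLCDS, against 27.8, 28.0 and 28.5 FPKM in control. Again the groups did not overlap, and the libraries within each group lay close together. The coefficient of variation was 2.0% in SLCDS and 1.3% in control, where counting alone would give 2.2% and 2.6%. The log2 fold change was 0.47 (SE 0.06; limma, adjusted p = 0.00497), with a ratio of means of 1.4. With control replicate 3 left out it was 0.48 (limma, adjusted p = 2.35e-05). The call of CAV1 was lost without SLCDS replicate 3 (limma, adjusted p = 0.0517). It held in the other 16 alternative settings, where limma adjusted p was 2.35e-05 to 0.0492. The highest of these values were without SLCDS replicate 2 (0.0492) and without SLCDS replicate 1 (0.0433), close to the threshold.

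CAV2, which assembles with CAV1 and is encoded next to it, stood at 48.0, 44.9 and 40.8 FPKM in SLCDS, against 42.1, 44.8 and 45.2 FPKM in control. The groups overlapped. The log2 fold change was 0.02 (SE 0.08; limma, adjusted p = 0.947) and 0.03 without control replicate 3 (limma, adjusted p = 0.732). The SLCDS libraries varied by 8.0% around their mean, against 2.1% from counting alone. CAV3 was listed at 0 in 5 libraries and at 0.0455 FPKM in SLCDS replicate 2.

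CAVIN1, the coat protein that caveolae need, was the most abundant member, at 157.3, 156.1 and 160.2 FPKM in SLCDS, against 129.3, 131.9 and 159.3 FPKM in control. Control replicate 3 lay within the SLCDS range and control replicates 1 and 2 below it. The log2 fold change was 0.18 (SE 0.10; limma, adjusted p = 0.408). It was 0.27 without control replicate 3 (limma, adjusted p = 0.000441). With that library kept, CAVIN1 also passed after quantile normalization (0.0341) and with trends in transcript length and GC content removed (0.0369). It missed in the other 14 of 17 alternative settings, with an adjusted p of up to 0.721.

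CAVIN3, which binds protein kinase C delta, was near the limit of detection. Its recovered fragments numbered 4, 5 and 8 in SLCDS and 3, 5 and 14 in control, or 0.231 to 0.453 and 0.179 to 0.803 FPKM. The muscle-type CAVIN4 had 5, 7 and 8 fragments in SLCDS and 5, 5 and 16 in control. In both genes the highest library was control replicate 3. At such numbers a difference between the groups was not detectable. CAV3, CAVIN3 and CAVIN4 lay under the filter of at least 1 FPKM in 3 libraries and were not tested.

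EHD2, an ATPase that stabilises caveolae at the membrane by ringing the neck, stood at 43.4, 44.1 and 46.6 FPKM in SLCDS, against 39.6, 38.3 and 40.6 FPKM in control. The ranges did not overlap, but the log2 fold change of 0.18 (SE 0.07) did not pass (limma, adjusted p = 0.213). It was 0.19 without control replicate 3 (limma, adjusted p = 0.0102). PACSIN2, an F-BAR protein of the caveolar neck, stood at 14.8, 12.8 and 14.1 FPKM in SLCDS, against 13.9, 14.0 and 14.6 FPKM in control, which overlap (log2 fold change -0.03, SE 0.08; limma, adjusted p = 0.882). Leaving out control replicate 3 gave -0.01 (limma, adjusted p = 0.935).

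PACSIN3, the related F-BAR protein, was the 1 tested member with its SLCDS range wholly below that of control. Its levels were 23.9, 21.1 and 22.8 FPKM in SLCDS, against 25.4, 25.2 and 32.4 FPKM in control. The log2 fold change of -0.27 (SE 0.11) did not pass (limma, adjusted p = 0.246). After control replicate 3, the highest of all 6 libraries, was left out, it was -0.16 (limma, adjusted p = 0.0586).

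**Figure D1:**
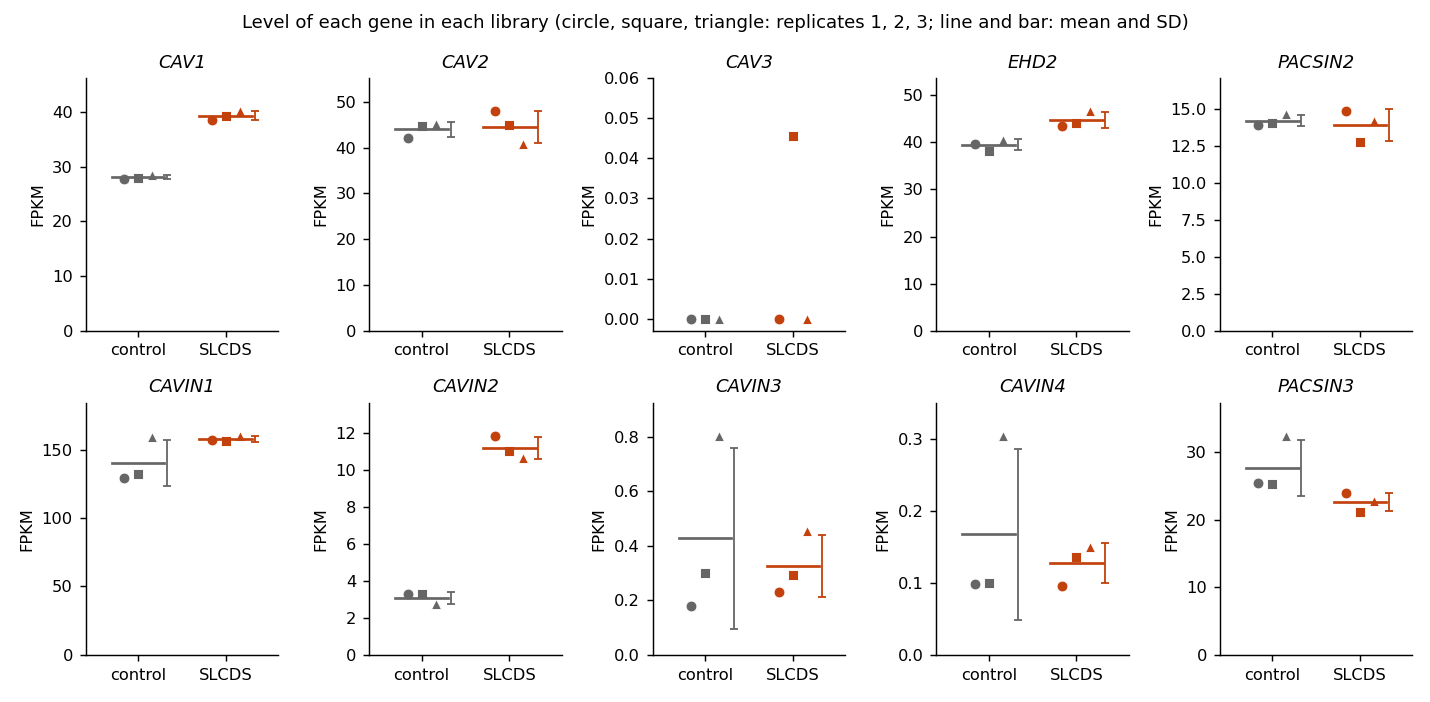
FPKM (y axis, linear, a scale of its own in each panel) of the 10 genes in 3 control libraries (grey) and 3 SLCDS libraries (orange); symbols are replicates, and lines and bars give the mean and SD (not drawn for CAV3, listed at 0 in 5 libraries). CAVIN2 and CAV1 lie apart in the 2 groups, and control replicate 3 (triangle) is the highest control for every gene but CAVIN2 and CAV3.

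Of the 7 tested members, 2 were higher in SLCDS at an adjusted p under 0.05 and none was lower (limma); limma-voom on the recovered fragments called the same 2. At an unadjusted limma p under 0.05, EHD2 was also higher (0.0327) and PACSIN3 lower (0.0427). The share of all tested genes at that looser threshold was not computed. Shares called below are at an adjusted p under 0.05. Over all tested genes 6.09% were called, 4.28% higher and 1.82% lower. Ranges did not overlap for 4 of the 7 members, 3 of them higher and 1 lower in SLCDS, and for 29.1% of all tested genes (15.5% higher, 13.6% lower). The median log2 fold change was 0.18 over the 7 members and 0.00 over all tested genes. Without control replicate 3, 4 members were higher (CAVIN2, CAV1, CAVIN1 and EHD2) and none lower, where 27.7% of all genes were called, 16% higher and 11.8% lower. Since the family was chosen with this comparison in view, nothing is read from these shares.

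**Figure D2:**
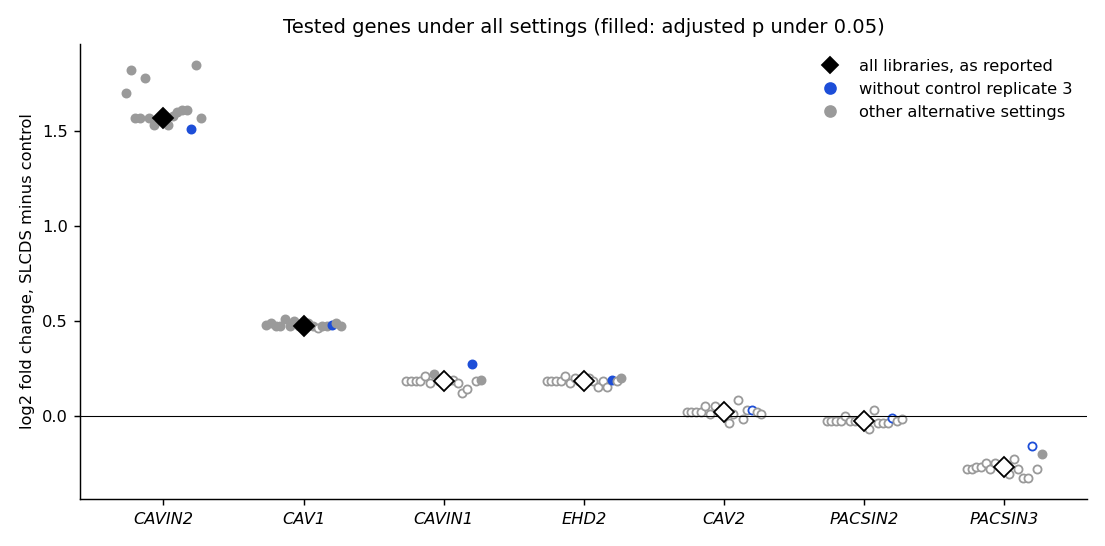
Log2 fold change, SLCDS minus control (y axis), of the 7 tested members with all libraries (diamond), without control replicate 3 (blue) and under the other alternative settings (grey circles), filled where the adjusted p was under 0.05. CAVIN2 spans 1.51 to 1.85 and CAV1 0.46 to 0.51, both above the other members in every setting.

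Levels per length can be set side by side within a group. In control the order of mean FPKM was CAVIN1 (140.2), CAV2 (44.0), EHD2 (39.5), CAV1 (28.1), PACSIN3 (27.6), PACSIN2 (14.2) and CAVIN2 (3.09), with CAVIN3, CAVIN4 and CAV3 below 1. Neighbours in that order had separate ranges, except CAV1 with PACSIN3 and CAVIN3 with CAVIN4. In SLCDS the order was CAVIN1 (157.9), EHD2 (44.7), CAV2 (44.6), CAV1 (39.4), PACSIN3 (22.6), PACSIN2 (13.9) and CAVIN2 (11.2). There the ranges of EHD2 and CAV2 overlapped, and those of the other neighbours did not. Among all 16832 listed genes CAVIN1 ranked 210th to 278th by level, and CAVIN2 between 5414th and 9669th.

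The balance between family members within a library is given as a description. The ratio of CAV1 to CAV2 was 0.806, 0.877 and 0.984 in SLCDS and 0.661, 0.625 and 0.631 in control, so CAV1 made up 44.6% to 49.6% of summed caveolin FPKM in SLCDS and 38.5% to 39.8% in control. CAV2 was the more abundant caveolin in all 6 libraries. CAVIN2 made up 6.21% to 6.98% of summed cavin FPKM in SLCDS and 1.67% to 2.47% in control. CAVIN1 was 3.97 to 4.07 times CAV1 in SLCDS and 4.65 to 5.59 times in control. The ratio of PACSIN3 to PACSIN2 was 1.61 to 1.66 in SLCDS and 1.80 to 2.21 in control. None of these ratios overlapped between the groups, and except in CAV1 to CAV2, control replicate 3 was the control farthest from SLCDS. Most of them contain CAV1 or CAVIN2, the called members. The share of ratios between any genes that do not overlap was not computed. For single genes, the ranges of 29.1% of those tested did not overlap. Nothing is read from the separation of these ratios.

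**Figure D3:**
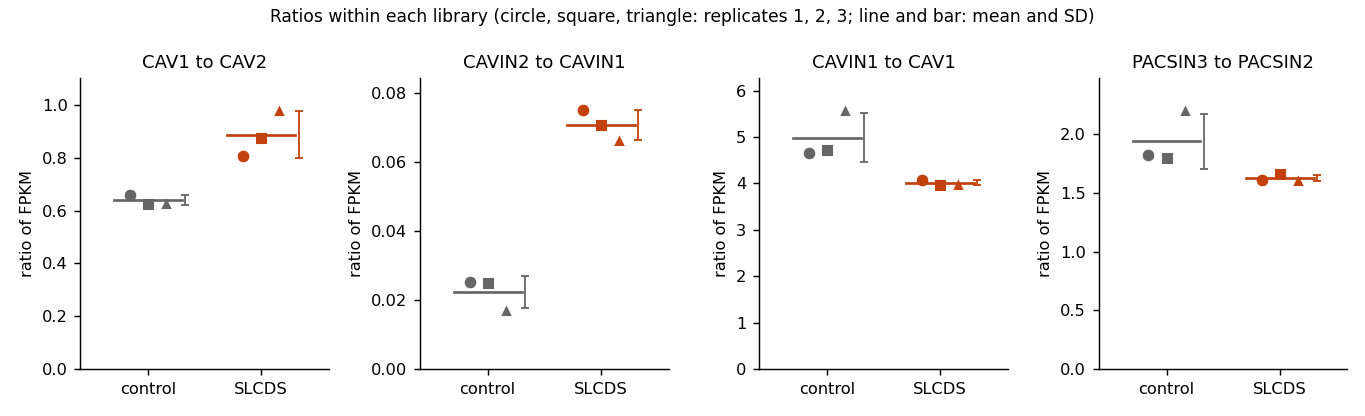
Ratios of FPKM between pairs of members within each library (y axis, linear from 0), for control (grey) and SLCDS (orange), with symbols for replicates and the mean and SD. CAV1 to CAV2 and CAVIN2 to CAVIN1 are higher in the SLCDS libraries, and CAVIN1 to CAV1 and PACSIN3 to PACSIN2 lower.

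Control replicate 3 differed from the other controls along with GC content and transcript length. Over 11471 tested genes its difference from the mean of control replicates 1 and 2 had a Pearson r of 0.54 with GC content and -0.71 with log transcript length; genes are not independent replicates. Among the members, CAVIN1 (59.9% GC, 3828 bases) and PACSIN3 (63.2% GC, 2009 bases) were higher in it by 0.28 and 0.35 on the log2 scale. CAVIN2 (43.2% GC, 3229 bases) was lower, at -0.20. EHD2 (61.6% GC, 3585 bases) differed by 0.06 and CAV1 (46.2% GC, 3201 bases) by 0.03. When trends with transcript length and GC content were taken out per library, a setting added after the data were seen, 4 members were higher (CAVIN2, CAV1, CAVIN1 and EHD2) and PACSIN3 was lower, where 17.5% of all genes were called, 10.4% higher and 7.03% lower. There the log2 fold change was 0.19 for CAVIN1 (limma, adjusted p = 0.0369), 0.20 for EHD2 (0.0298) and -0.20 for PACSIN3 (0.0315).

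**Figure D4:**
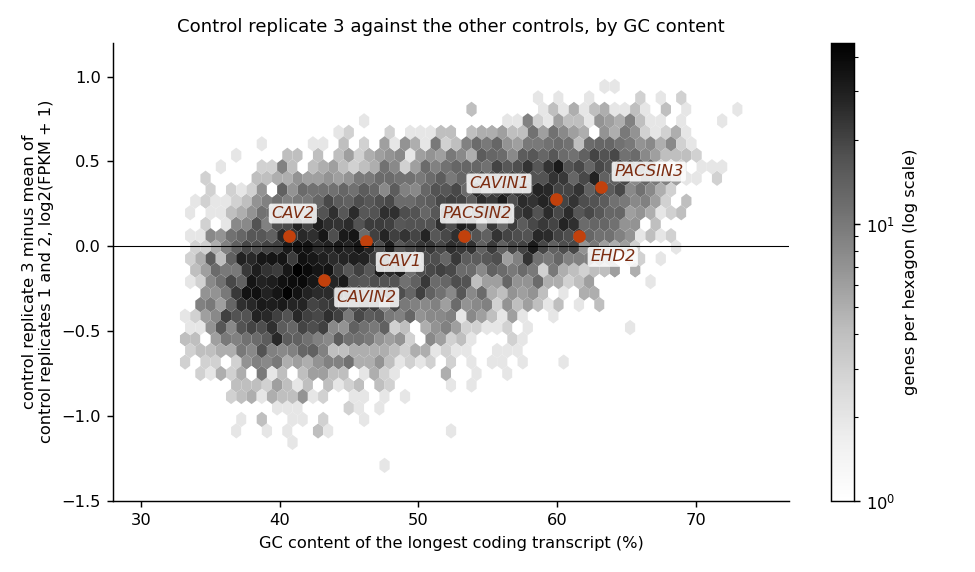
Control replicate 3 minus the mean of control replicates 1 and 2 on the log2(FPKM + 1) scale (y axis) against GC content of the longest coding transcript in percent (x axis), for 11471 genes in hexagons shaded by number on a log scale and the 7 tested members as orange points; 7 genes lie outside the y range. CAVIN1 and PACSIN3 lie above 0 and CAVIN2 below it.

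The other genes around caveolae were read from lists that were likewise written with earlier results of these data known. Their counts stand beside 4.28% of all tested genes higher and 1.82% lower with all libraries, and beside 16% higher and 11.8% lower without control replicate 3. Among 16 tested caveola partners (kinases, actin linkers and dynamin), the SRC family kinase gene FYN rose from 48.2 ± 1.95 to 63.1 ± 2.75 FPKM (n = 3 each; limma, adjusted p = 0.0233), none fell and 15 were not called. FYN passed in 11 of 17 other settings, and missed with any 1 library other than control replicate 3 left out (limma, adjusted p = 0.0769 to 0.146); without control replicate 3 its log2 fold change was 0.41 (0.000189). FLNA, which ties caveolae to actin, stood at 261.7 ± 13.8 FPKM in SLCDS, against 236.5 ± 18.7 FPKM in control and was not called, with or without control replicate 3 (limma, adjusted p = 0.487 and 0.243). Of the other EHD and PACSIN genes neither of 2 tested was called, with EHD4 at 9.86 and EHD1 at 8.21 FPKM in SLCDS against 8.18 and 8.78 FPKM in control. None of 9 tested flotillin and raft genes was called, the most abundant being FLOT1, at 122.2 and 129.0 FPKM, and PRNP, at 74.9 and 68.8 FPKM. With control replicate 3 left out, the partner list had 3 higher and 2 lower, the raft list 2 and 2, and the EHD and PACSIN list 1 and 0. EHD4 and PRNP were then called higher (limma, adjusted p = 0.00845 and 0.0149). Median log2 fold changes were 0.10, -0.06 and 0.08 for these 3 lists.

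Of 10 tested receptors reported in caveolae, 3 rose, 1 fell and 6 were not called. The PDGF receptor gene PDGFRB rose from 0.359 ± 0.0715 to 1.77 ± 0.0982 FPKM (limma, adjusted p = 0.000696), the TGF-beta receptor gene TGFBR2 from 12.2 ± 1.2 to 20.7 ± 0.436 FPKM (0.0036), and the integrin gene ITGB1 from 100.6 ± 13.6 to 152.3 ± 2.95 FPKM (0.0221). The endothelin receptor gene EDNRB fell from 147.2 ± 30.3 to 67.2 ± 2.85 FPKM (limma, adjusted p = 0.00676). ITGB1 passed in 11 of 17 other settings and missed with any 1 SLCDS library left out (limma, adjusted p = 0.107 to 0.119). EDNRB missed only without SLCDS replicate 1 among its 17 (0.0502). PDGFRB was under 1 FPKM in every control library and entered the test only through the SLCDS libraries, so its place in the count could only be a rise. Leaving out control replicate 3, the receptor list had 4 higher and 2 lower. The log2 fold changes were then 1.02 for PDGFRB, 0.65 for TGFBR2, 0.49 for ITGB1 and -1.28 for EDNRB, all called. The median of the list with all libraries was 0.23 on the log2 scale.

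Clathrin-coated pits are the other main route of uptake. Of 19 tested clathrin genes 2 rose, the epsin gene EPN2 from 26.1 ± 0.469 to 38.6 ± 0.543 FPKM (limma, adjusted p = 0.00277) and FCHO1, an early pit factor, from 1.28 ± 0.338 to 2.66 ± 0.0874 FPKM (0.0142), none fell and 17 were not called, with a median log2 fold change of -0.05. FCHO1 missed with any 1 SLCDS library left out (limma, adjusted p = 0.067 to 0.0815) and without control replicate 2 (0.0583). Of 18 tested genes of cholesterol and sphingomyelin supply, the sterol exporter gene ABCA1 rose from 4.46 ± 1.27 to 8.39 ± 0.501 FPKM (limma, adjusted p = 0.0385; called in 10 of 17 other settings), none fell and the median was 0.01. ABCA1 missed with any 1 SLCDS library or control replicate 1 left out (limma, adjusted p = 0.0711 to 0.168). FDPS stood at 50.1 and 50.4 FPKM and SMPD1 at 45.0 and 44.0 FPKM in SLCDS and control. Without control replicate 3 the clathrin list had 3 higher and 3 lower, and the lipid list 4 and 1, or 6 of 19 and 5 of 18 genes, where 27.7% of all genes were called. EPN2, FCHO1 and ABCA1 were then at log2 fold changes of 0.54, 0.81 and 0.60, all called.

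Targets of YAP and SRF, factors that respond to tension and actin, moved in both directions: of 16 tested, 4 rose, 1 fell and 11 were not called. ACTG2 rose from 0.462 ± 0.428 to 3.91 ± 0.732 FPKM (limma, adjusted p = 0.00365), CCN2 from 8.09 ± 0.536 to 19.8 ± 0.799 FPKM (0.000435) and CCN1 from 16.7 ± 1.69 to 23.5 ± 1.17 FPKM (0.0251). AMOTL2, named after its values were seen, rose from 2.37 ± 0.142 to 3.37 ± 0.103 FPKM (0.0278) and passed in 8 of 16 other settings. With any 1 library other than control replicate 3 left out, limma adjusted p was 0.0772 to 0.139 for CCN1 and 0.0668 to 0.148 for AMOTL2. ANKRD1 fell from 11.7 ± 2.08 to 3.25 ± 0.0796 FPKM (limma, adjusted p = 0.000717). Without control replicate 3, 9 were higher and 2 lower, and the log2 fold changes were 1.6 for ACTG2, 1.23 for CCN2, 0.54 for CCN1, 0.38 for AMOTL2 and -1.66 for ANKRD1, all called. ACTG2 was under 1 FPKM in every control library and entered the test only through the SLCDS libraries. The median log2 fold change of the list was 0.25.

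**Figure D5:**
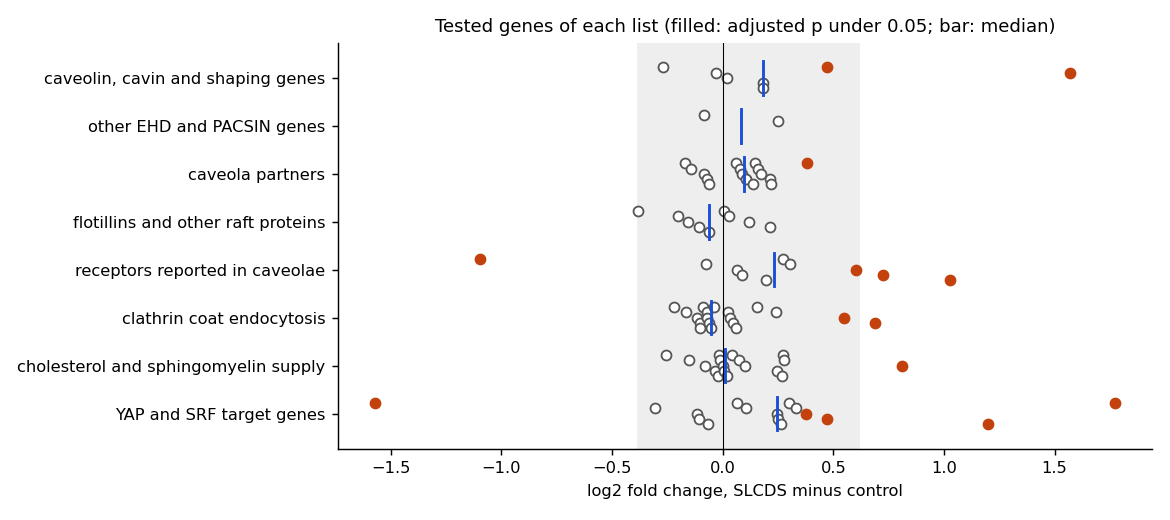
Log2 fold change, SLCDS minus control (x axis), of each tested gene in the family and in 7 other lists (rows), filled where the adjusted p was under 0.05, with the median of each list as a bar. The grey band holds the middle 95% of all tested genes, from -0.38 to 0.61. CAVIN2 lies outside it, and CAV1 and the other family members inside.

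Markers of cell types dense in caveolae were also read, since such cells would carry these transcripts. The labels name no cells besides this glioma line. In bulk RNA, fewer cells of a type and less RNA per cell cannot be told apart. Counts for these lists stand beside the same shares of all tested genes, 4.28% higher and 1.82% lower, or 16% and 11.8% without control replicate 3. Of 10 endothelial markers 8 lay under 1 FPKM in every library, PECAM1 and VWF among them, and the list summed to 6.36 to 7.17 FPKM in SLCDS, against 3.22 to 4.14 FPKM in control. The 1 tested, the cadherin gene CDH5, rose from 1.91 ± 0.634 to 4.81 ± 0.438 FPKM (limma, adjusted p = 0.0106). CDH5 missed with any 1 SLCDS library left out (0.0506 to 0.0619). Smooth muscle and pericyte markers summed to 18.5 to 19.7 FPKM in SLCDS, against 11.8 to 13.7 FPKM in control, with 2 of 5 tested rising, ACTA2, from 2.54 ± 0.465 to 7.49 ± 0.686 FPKM (0.00138), and PDGFRB, while MYH11, CNN1, LMOD1 and CSPG4 lay under 1 FPKM throughout. PDGFRB entered this list, too, only through the SLCDS libraries. Without control replicate 3 CDH5 was at a log2 fold change of 1.19 and ACTA2 at 1.37, both called, and the lists again had 1 and 2 higher. ACTA2 and ACTG2 are close in sequence to other actins, and their counts are uncertain.

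Adipocyte markers summed to 11.7 to 13.0 FPKM in SLCDS, against 4.73 to 6.30 FPKM in control. The lipase gene LPL rose from 3.85 ± 1.06 to 10.9 ± 0.720 FPKM (limma, adjusted p = 0.00393), PLIN1 stood at 1.41 and 1.46 FPKM, and FABP4, CIDEC and PPARG lay under 1 FPKM throughout. LPL was at a log2 fold change of 1.14 without control replicate 3, still called. The 6 listed skeletal muscle markers summed to at most 0.536 FPKM in any library. Fibroblast markers summed to 412.8 to 419.2 FPKM in SLCDS, against 422.7 to 453.5 FPKM in control, none of 3 tested being called; COL1A2 stood at 365.0 and 374.3 FPKM and THY1 at 26.9 and 35.6 FPKM. THY1 was called lower in 4 of 17 other settings, among them without control replicate 3 (log2 fold change -0.26; limma, adjusted p = 0.00172) and with the length and GC trends removed (0.00958), and 1 of the 3 fibroblast genes was lower without that library. No listed marker of these 5 types was at 0 in every library. The planned markers MYOCD (smooth muscle), ADIPOQ and LEP (adipocyte), and MYOG and MYOD1 (skeletal muscle) were not among the listed genes, so they have no values here. The part of such cells in the levels of CAVIN2 and CAV1 was not tested.

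Genes with the profile closest to a member over the 6 libraries were found by the mean absolute difference of centred log2(FPKM + 1) values, as a description. For CAVIN2 these were PTP4A3 (0.096), PHLDB2 (0.1) and SCG2 (0.105). PTP4A3 stood at 3.47 ± 0.154 FPKM in SLCDS, against 0.666 ± 0.0971 FPKM in control. It was under 1 FPKM in every control library and entered the test only through the SLCDS libraries. For CAV1 they were NR1D1 (0.023), NR2F1 (0.032) and MGAT5B (0.033). The 6 libraries form only 2 groups, so genes with a like difference between the groups score as alike. Of the nearest coding neighbours, MET, on the other side of CAV1 from CAV2, stood at 11.8 ± 0.578 FPKM in SLCDS, against 8.30 ± 1.96 FPKM in control (log2 fold change 0.48; limma, adjusted p = 0.15). Beside CAVIN2, NABP1 stood at 16.4 ± 0.554 and 13.2 ± 1.47 FPKM (log2 fold change 0.30; limma, adjusted p = 0.126), and TMEFF2 was at 0.147 and 0.0879 FPKM and not tested. When control replicate 3 was left out, MET passed at an adjusted p of 0.00561 and NABP1 at 0.0105 (limma, 0.30 and 0.22 on the log2 scale).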

How the data were processed

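Per the labels' protocols, total RNA was extracted with TRIzol and libraries were made with the VAHTS Universal V6 kit. The authors deposited 1 file of FPKM per library, on a linear scale. No aligner, counter or annotation was given in the sources used here. GRCm38 and mm10, which are mouse builds, appear per the submitters' processing notes, although the line and the symbols are human, so which genome was used is open. Replicate numbers and groups came from the sample titles.

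FPKM times relative depth was a whole multiple of 1 step per gene, within a tolerance of 0.001, for all 15309 genes above 0 in 3 or more libraries, which gave fragments per gene (a factor common to all 6 libraries would be missed). Counting errors assume independent fragments. Replicates differed by more than counting noise (median chi-square 1.03 or more, where counting gives 0.45), so no libraries were merged.

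The 11506 genes reaching 1 FPKM in no fewer than 3 libraries were fitted as log2(FPKM + 1) with limma 3.58.1 in R 4.3.3, without covariates, with trended empirical Bayes variances and 2-sided p-values, Benjamini-Hochberg adjusted over all tested genes. Genes rose or fell at an adjusted p under 0.05. The procedure was tested on simulated data with the same spread for all genes and no library set apart. That test does not cover a library such as control replicate 3. Alternatives were 15 listed at the outset and 2 added after the data were seen: limma-voom on the recovered fragments, and removal of each library's trend with transcript length and GC content (longest coding transcript of GENCODE release 29, natural splines of 4 degrees of freedom).

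The members and all 13 lists were chosen with earlier results of these data known. All members are named. From each list up to 4 called genes with the largest change are named, or the 2 most abundant tested where fewer than 2 were called, with the 3 genes most like CAVIN2 and CAV1 in profile and the coding neighbours of called members, and GFAP, VIM, NES and SOX2 as identity markers. Neighbours and promoter regions came from RefSeq (GRCh38.p14); 7 of 10 members had a promoter entry, and CAVIN1, CAVIN3 and PACSIN3 did not. Python 3.11.15 was used for the rest.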

Additional observations from a re-analysis of the deposited data

How the results depend on the processing

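CAVIN2 was called in all 17 alternative settings, with a log2 fold change of 1.51 to 1.85, and CAV1 in 16. With all libraries 701 genes and 2 members were called. Leaving out 1 library at a time gave 276 to 3191 genes and 1 to 4 members, the most without control replicate 3 and the fewest members without SLCDS replicate 3. With the length and GC trend removed there were 2004 genes and 5 members, and with a mean FPKM of at least 5, 324 genes. The cause was not tested. With the replicate block 455 genes were called, and CAVIN2 and CAV1 stayed called among the members, while FYN (adjusted p = 0.0969), ITGB1 (0.0544), AMOTL2 (0.0966), NR1D1 (0.056), NR2F1 (0.0646) and MGAT5B (0.062) were not called; the other named genes kept their calls. Deviations from the group means correlated at -0.326, 0.36 and 0.065 between same-numbered libraries. SLCDS replicate 1 correlated at -0.326 and -0.312 with control replicates 1 and 2, and at 0.357 with control replicate 3. Since control replicate 3 stood apart, it shaped the deviations of all controls. These correlations therefore cannot decide whether the libraries were paired. Scalings moved the median of all genes by at most 0.03.

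Among genes that were not called, signs turned as follows. CAV2 was at -0.04 without SLCDS replicate 1 and -0.02 without control replicate 1, and PACSIN2 at 0.03 without SLCDS replicate 2. FLOT1 was at 0.08 without control replicate 3 and 0.01 with the trend removed. FDPS was at -0.03 without SLCDS replicate 1 or control replicate 1 and -0.10 without control replicate 2, and SMPD1 at -0.03 and -0.02 without control replicates 1 and 2. PLIN1 was at 0.02 without SLCDS replicate 1, 0.09 without control replicate 3 and 0.01 with the trend removed. COL1A2 was at 0.08 with quantile normalization and 0.002 without control replicate 3. VIM was at -0.07 with quantile normalization, and -0.01 and -0.04 without control replicates 1 and 2. Leaving out 1 library at a time gave ranges of -0.07 to 0.03 for PACSIN2, -0.15 to 0.08 for FLOT1, -0.10 to 0.15 for FDPS, -0.03 to 0.18 for SMPD1, -0.09 to 0.09 for PLIN1, -0.06 to 0.002 for COL1A2 and -0.04 to 0.12 for VIM. Of 119 counts for the 7 lists under the alternatives, 37 moved by over 1.5 times or to or from 0, in some cases through a single gene. Depth limits CAV3, and CAVIN3 and CAVIN4, with at most 16 recovered fragments.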
